A study of Homo sapiens with 18 samples.

Results

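The genes described here are 10 regulators of the G1 phase of the cell cycle, chosen by symbol: the D cyclins CCND1, CCND2 and CCND3, the kinases CDK4 and CDK6, the CDK inhibitors CDKN1B, CDKN1C, CDKN2C and CDKN2D, and RB1. They are 10 of the 60609 gene identifiers counted in each library, and all 10 passed the filter on low counts. CDKN1C passed it with at most 24 counts in any library, and only through its 24 h libraries. The cells were OCI-AML1, an established human acute myeloid leukaemia line labelled as wild type. They had received AML874 for 24 h, SEL120-34A for 24 h, DMSO for 24 h, AML874 for 8 h, SEL120-34A for 8 h or DMSO for 8 h, with 3 libraries in each of the 6 groups. SEL120-34A is known as an inhibitor of the Mediator kinases CDK8 and CDK19, AML874 is known here by its code name alone, and DMSO is the solvent control. The doses, and whether the libraries of a group came from separate cultures, are not given in the sources used here, so the p-values measure only the spread between libraries, which may be technical.

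A D cyclin binds CDK4 or CDK6 and directs the kinase to the retinoblastoma protein, which RB1 encodes. Phosphorylation of this protein releases E2F transcription factors, and E2F target genes then carry the cell into S phase. INK4 inhibitors, here CDKN2C and CDKN2D, bind CDK4 and CDK6 themselves, whereas the CIP/KIP inhibitors CDKN1B and CDKN1C bind cyclin-CDK complexes, those of CDK2 above all. Blood progenitors are known for their reliance on CDK6 and cyclin D3.

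The libraries held 98975944 to 142496541 counts on genes. Markers of the myeloid lineage were present in every library, among them SPI1 at 174 to 255 TPM (transcript abundance corrected for length and library size) and CD33 at 46.3 to 89.3 TPM, whereas HBB, HBA1 and HBA2 had no count in any of the 18 libraries. The summed TPM of 8 myeloid markers differed between the groups. It was 475 to 482 under AML874, 551 to 569 under SEL120-34A and 692 to 701 under DMSO at 24 h, and 781 to 789.6, 771 to 786 and 831 to 836 in the same order at 8 h. In bulk RNA, fewer cells of a type and less RNA per cell cannot be told apart. The mean log2 CPM (counts scaled to library size) of 23 hypoxia-response (HIF) target genes also moved with the groups: 5.59 to 5.92 under AML874, 5.65 to 6.14 under SEL120-34A and 6.04 to 6.31 under DMSO at 24 h, and 5.13 to 5.21 under AML874, 5.02 to 5.73 under SEL120-34A and 5.32 to 6.03 under DMSO at 8 h. In 4 libraries (SEL120-34A 24 h replicate 2, DMSO 24 h replicate 1, SEL120-34A 8 h replicate 2 and DMSO 8 h replicate 3) it stood above the next library of the group by 0.26 to 0.47. The part of the myeloid markers in the results below was not tested. A fit with the HIF mean as a covariate was made, and its values are given beside the genes named here whose call it changed.

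At 24 h, 8 of the 10 genes passed an adjusted p of 0.05 under AML874 and 8 of 10 under SEL120-34A, against 46.8% and 37.7% of all 20920 genes tested. Under either compound 3 rose (CDK6, CDKN1B and RB1) and 5 fell (CCND1, CCND2, CCND3, CDKN2C and CDKN2D); of all genes 23.1% rose and 23.7% fell under AML874, and 19.1% and 18.6% under SEL120-34A. At 8 h the number was 4 of 10 under AML874, 0 higher and 4 lower, against 39.6% of all genes (19.7% higher and 19.9% lower), and 6 of 10 under SEL120-34A, 1 higher and 5 lower, against 45.1% (22.4% higher and 22.6% lower). The count for AML874 at 8 h therefore lay at the share seen across all genes. Shares were higher among the 13527 genes with at least 1 CPM in 3 libraries, which leave out CDKN1C. In a fit of those genes 62.5% and 52.6% passed under AML874 and SEL120-34A at 24 h, and 55.0% and 59.3% at 8 h. The counts of 10 genes above cannot be set against these shares directly, since they come from the main fit with CDKN1C. In the fit with the 1 CPM filter, CDK6 under AML874 at 8 h lost its call (-0.06, edgeR adjusted p 0.0520). CCND2 under SEL120-34A at 8 h gained one (0.08, edgeR adjusted p 0.0386). At 24 h the same 8 genes passed under each compound, so the excess over the share was smaller. The all-gene shares called in the other comparisons below were likewise lower than in that fit. The 3 compound libraries did not overlap the 3 DMSO libraries for 8, 8, 4 and 8 of the 10 genes in the same order of comparisons, against 53.5%, 45.8%, 48.7% and 51.8% of all genes. Both compounds were set against the same DMSO libraries, so their values share the error of those controls. Without the 4 libraries that stood high in HIF targets, an alternative chosen after seeing the data, 8 and 7 of the 10 genes passed under AML874 and SEL120-34A at 24 h and 6 and 7 at 8 h, against 45.1%, 34.5%, 38.6% and 40.8% of all genes tested in that fit. The median log2 fold change of the 10 genes was -0.11, -0.18, 0.00 and -0.07, beside 0.00, 0.01, 0.00 and 0.00 for all genes tested.

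**Figure D1:**
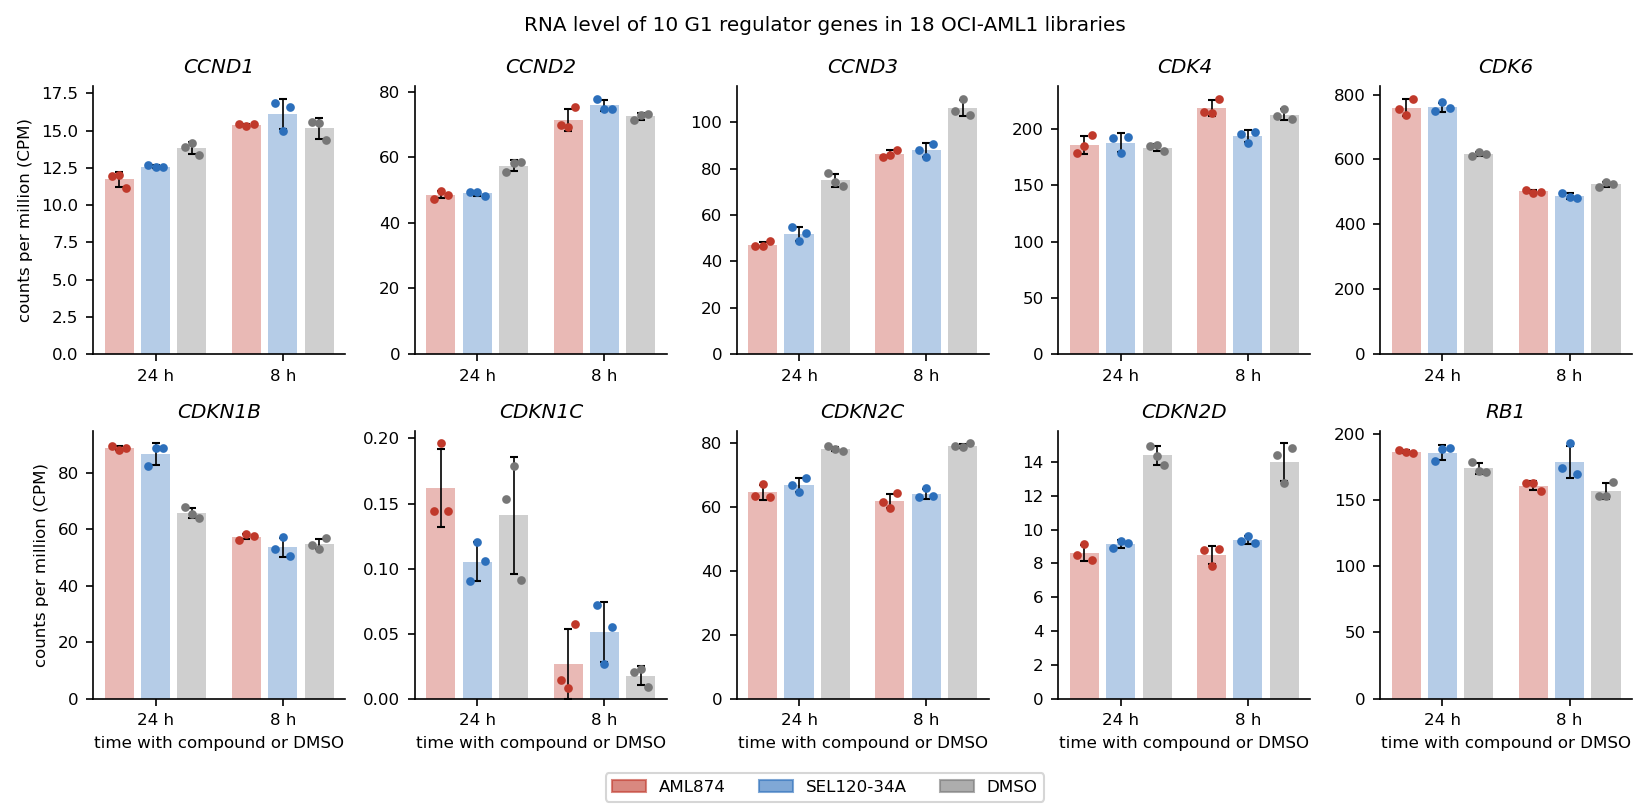
Level of each of the 10 genes in CPM in every library (points), with the mean (bar) and SD (line) of 3 libraries, for AML874, SEL120-34A and DMSO at 24 h (left) and 8 h (right); each panel has its own scale from 0. CCND3 and CDKN2D stand below DMSO at both times, and CDK6 and CDKN1B stand above it at 24 h.

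The promoters of the genes with the widest changes are shown for the sequence next to their starts. RefSeq promoter windows on GRCh38.p14 were matched for 7 of the 10 genes; CCND1, CCND2 and CDKN1C are named only. Each line gives the 250 bases before an annotated start, 5′ to 3′ on the strand of the gene. Capitals mark the matches, on either strand, to any of the motifs searched. These were E2F (TTTCGCGC, TTTGGCGC or TTCCCGC), the CHR element (TTTGAA or TTCGAA), the GC box (GGGCGG), the CCAAT box (CCAAT), the TATA box (TATAAA), EGR (GCGTGGGCG or GCGGGGGCG), AP-1 (TGANTCA), STAT (TTCNNNGAA), FOXO (GTAAACA), the E-box (CACGTG) and the ETS site (CCGGAAG). CDKN2D, which fell most, is at chr19:10568980-10569229, minus strand. CDKN2C has windows at chr1:50960495-50960744, plus strand (start 1) and chr1:50968456-50968705, plus strand (start 2), and both starts are GENCODE transcript starts. CCND3 is shown at its second start, chr6:41941809-41942058, minus strand, which most of its matched GENCODE transcripts use. CDKN1B, which rose at 24 h, is at chr12:12717118-12717367, plus strand; no GENCODE 29 transcript start lies within 100 bases of its RefSeq start.
CDKN2D: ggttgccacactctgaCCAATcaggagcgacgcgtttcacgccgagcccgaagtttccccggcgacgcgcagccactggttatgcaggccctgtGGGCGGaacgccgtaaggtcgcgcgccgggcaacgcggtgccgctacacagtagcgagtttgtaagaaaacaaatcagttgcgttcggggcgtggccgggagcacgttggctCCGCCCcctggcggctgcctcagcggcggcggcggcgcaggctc
CDKN2C start 1: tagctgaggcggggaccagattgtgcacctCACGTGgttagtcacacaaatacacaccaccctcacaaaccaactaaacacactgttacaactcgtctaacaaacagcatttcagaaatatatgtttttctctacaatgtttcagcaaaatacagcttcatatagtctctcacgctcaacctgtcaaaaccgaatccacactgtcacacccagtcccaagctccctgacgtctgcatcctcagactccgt
CDKN2C start 2: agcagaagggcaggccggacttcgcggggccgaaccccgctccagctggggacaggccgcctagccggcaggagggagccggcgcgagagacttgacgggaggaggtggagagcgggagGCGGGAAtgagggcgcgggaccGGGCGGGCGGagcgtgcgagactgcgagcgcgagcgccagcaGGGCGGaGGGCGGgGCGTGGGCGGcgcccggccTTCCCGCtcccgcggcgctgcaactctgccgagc
CCND3 start 2: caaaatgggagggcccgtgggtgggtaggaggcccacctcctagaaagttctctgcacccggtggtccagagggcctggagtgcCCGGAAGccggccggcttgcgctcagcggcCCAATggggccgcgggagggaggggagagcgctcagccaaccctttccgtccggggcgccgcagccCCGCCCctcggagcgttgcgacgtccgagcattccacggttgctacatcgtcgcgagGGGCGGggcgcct
CDKN1B: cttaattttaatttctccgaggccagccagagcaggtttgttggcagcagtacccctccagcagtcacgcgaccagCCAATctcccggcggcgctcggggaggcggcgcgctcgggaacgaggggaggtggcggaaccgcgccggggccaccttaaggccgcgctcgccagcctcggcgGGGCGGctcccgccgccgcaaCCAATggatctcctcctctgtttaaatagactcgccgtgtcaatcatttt

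Of these 5 windows, 4 held a GC box, the exception being CDKN2C start 1, and 3 held CCAAT (CDKN2D, CCND3 and CDKN1B). Across all 35116 RefSeq windows of this length, 42.6% held a GC box and 32% held CCAAT. Both E2F matches lay before CDKN2C start 2, at 131 and 34 bases from the start, and 6.36% of all windows held such a match. The same window held 5 GC boxes and an EGR match whose letters overlap one of them; 5.37% of all windows held an EGR match. CCND3 start 2 held an ETS match (8.52% of all windows), and CDKN2C start 1 held an E-box (6.34%). None of the 5 windows held the TATAAA, CHR, AP-1, STAT or FOXO letters. The remaining windows of the 7 genes include 1 of CDK6 with 3 GC boxes and that of CDK4 with 3 GC boxes and 3 E-boxes. A match describes these letters and shows no binding.

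Among the D cyclins, CCND3 (ENSG00000112576.12, chr6:41934933-42050357 on the minus strand) encodes cyclin D3, the most abundant of them per transcript in these cells. At 24 h its libraries had 46.6, 46.6 and 48.6 CPM under AML874, 54.9, 48.7 and 52.2 CPM under SEL120-34A and 78.2, 74.3 and 72.4 CPM under DMSO. At 8 h they had 85.3, 86.0 and 88.3 CPM under AML874, 88.3, 85.1 and 90.8 CPM under SEL120-34A and 105, 110.2 and 103 CPM under DMSO. All 12 compound libraries lay below every DMSO library of their time. The log2 fold change was -0.67 ± 0.04 (SE) for AML874 and -0.53 ± 0.04 for SEL120-34A at 24 h, a fold of 0.631 and 0.693, with edgeR adjusted p of 4.27e-16 and 1.97e-13. At 8 h it was -0.30 ± 0.04 and -0.27 ± 0.04 (edgeR adjusted p 3.58e-08 and 1.53e-07). The effect at 24 h exceeded that at 8 h by -0.37 ± 0.05 for AML874 and -0.26 ± 0.05 for SEL120-34A on the log2 scale (edgeR adjusted p 1.51e-06 and 0.000201). CCND3 was also the gene of the 10 that differed between the compounds at 24 h: it was lower under AML874 than under SEL120-34A by -0.14 ± 0.04 (edgeR adjusted p 0.0077). Without SEL120-34A 24 h replicate 1, the highest of its group, that difference was -0.10 with an adjusted p of 0.0913.

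CCND2 (ENSG00000118971.8, chr12:4273772-4305350 on the plus strand) encodes cyclin D2 and fell under both compounds at 24 h. At that time the libraries held 47.4, 49.6 and 48.6 CPM under AML874, 49.3, 49.5 and 48.0 CPM under SEL120-34A and 55.4, 58.2 and 58.4 CPM under DMSO, with no overlap between either compound and DMSO. At 8 h they held 69.7, 69.3 and 75.3 CPM, 77.8, 74.7 and 74.9 CPM and 71.3, 73.0 and 73.2 CPM for AML874, SEL120-34A and DMSO, and the AML874 values overlapped those of DMSO. The log2 fold change at 24 h was -0.24 ± 0.03 for AML874 and -0.23 ± 0.03 for SEL120-34A (edgeR adjusted p 1.05e-07 and 5.02e-07). At 8 h neither passed: -0.02 ± 0.03 for AML874, with a 95% interval of -0.09 to 0.04, and 0.06 ± 0.03 for SEL120-34A, 0.00 to 0.13. The SEL120-34A value at 8 h passed in 4 of 17 alternatives: it was 0.13 with library totals alone, 0.08 with a filter of 1 CPM in 3 libraries, 0.07 in a fit of the pair of groups and 0.09 without the 4 libraries high in HIF targets. The change of effect between the times passed for both compounds, -0.22 ± 0.05 and -0.29 ± 0.05 (edgeR adjusted p 0.000355 and 4.92e-06).

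CCND1 (ENSG00000110092.3, chr11:69641087-69654474 on the plus strand) encodes cyclin D1 and had the lowest TPM of the D cyclins. It averaged 11.7 ± 0.487 CPM under AML874, 12.6 ± 0.0925 CPM under SEL120-34A and 13.8 ± 0.407 CPM under DMSO at 24 h, and 15.4 ± 0.0852 CPM, 16.1 ± 1.01 CPM and 15.1 ± 0.690 CPM in the same order at 8 h (SD, n = 3 each). The compound libraries lay below the DMSO libraries at 24 h and overlapped them at 8 h. CCND1 fell by 0.24 ± 0.05 on the log2 scale under AML874 at 24 h (edgeR adjusted p 0.000138). Under SEL120-34A its change was -0.14 ± 0.05 with an edgeR adjusted p of 0.0271, and this call ended with unstranded counts, without the 4 libraries high in HIF targets, and without SEL120-34A 24 h replicate 2 or 3 or DMSO 24 h replicate 1 or 2 (edgeR adjusted p up to 0.0803). At 8 h no CCND1 value against DMSO passed, except for SEL120-34A without SEL120-34A 8 h replicate 2 and with library totals alone, where it was at 0.16 (edgeR adjusted p 0.00755). The opposite-strand gene LTO1 overlaps CCND1; the values here are from reads of the CCND1 strand.

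By TPM, which is per length, CCND3 made up 67.2 ± 0.549% of the summed D cyclin level under AML874, 68.9 ± 1.37% under SEL120-34A and 72.8 ± 2.22% under DMSO at 24 h (mean ± SD, n = 3). At 8 h the CCND3 share was 73.7 ± 0.371%, 73.2 ± 0.611% and 76.8 ± 0.770% in AML874, SEL120-34A and DMSO. The share of CCND2 was 24.9 ± 0.877%, 23.1 ± 1.04% and 19.9 ± 1.26% at 24 h, and 19.9 ± 0.483%, 20.6 ± 0.908% and 17.8 ± 0.697% at 8 h. The mix of D cyclins thus held less CCND3 and more CCND2 under the compounds, without overlap between compound and DMSO libraries at either time. With 3 libraries against 3, the 2-sided exact permutation test gave 0.1, the smallest p it allows, for each of these 8 differences. Adjusted over the 16 share tests made, these were 0.114, so none passed 0.05.

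**Figure D2:**
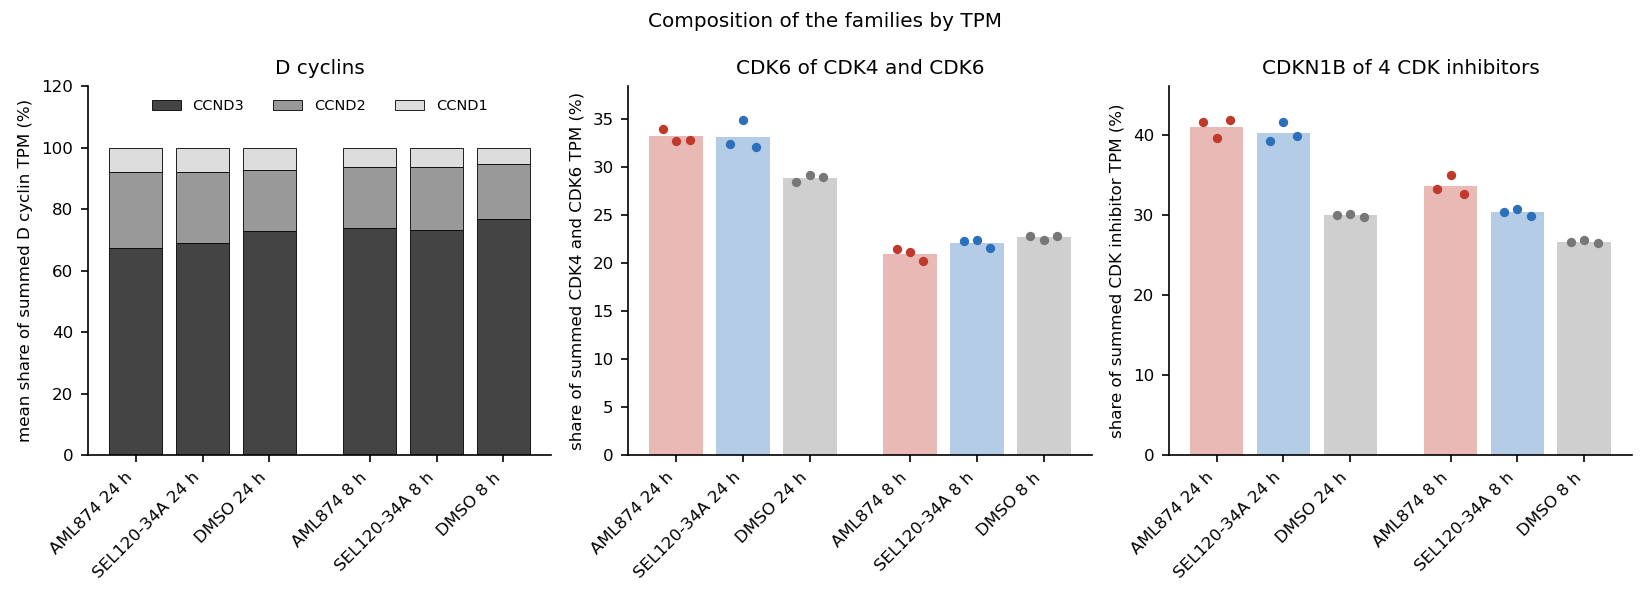
Shares within each family by TPM in the 6 groups: stacked mean shares of CCND3, CCND2 and CCND1 (left), CDK6 of CDK4 and CDK6 (centre), and CDKN1B of 4 CDK inhibitors (right), with means of 3 libraries as bars and, at centre and right, libraries as points. The CCND3 share was 67.2 ± 0.549% under AML874 and 72.8 ± 2.22% under DMSO at 24 h, and the CDK6 share was 33.1 ± 0.698% and 28.8 ± 0.399%.

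The kinases went apart at 24 h, where CDK6 rose and CDK4 was not called, while both were called lower under SEL120-34A at 8 h. CDK6 (ENSG00000105810.9, chr7:92604921-92836594 on the minus strand) had 755, 736 and 787 CPM under AML874, 749, 777 and 757 CPM under SEL120-34A and 609.8, 623 and 617 CPM under DMSO at 24 h. At 8 h its libraries had 507, 497 and 499.6 CPM under AML874, 498, 485 and 481 CPM under SEL120-34A and 516, 531 and 524 CPM under DMSO. In CPM, every compound library lay above every DMSO library at 24 h and below every DMSO library at 8 h. By TPM the AML874 libraries at 8 h (60.6 to 63.5) overlapped those of DMSO (62.5 to 63.6), while those of SEL120-34A (59.2 to 61.9) lay below DMSO. CDK6 rose at 24 h by 0.30 ± 0.02 under AML874 and 0.30 ± 0.02 under SEL120-34A on the log2 scale, a fold of 1.23 for each (edgeR adjusted p 1.3e-12 and 1.89e-12). At 8 h the change was -0.06 ± 0.02 and -0.10 ± 0.02 (edgeR adjusted p 0.0359 and 0.000649). Scaled by library totals without TMM factors, the 8 h changes were -0.02 and -0.04 and neither passed; without DMSO 8 h replicate 2 the adjusted p for AML874 was 0.0552, and its call also ended with a filter of 1 CPM in 3 libraries and with unstranded counts. The effect at 24 h minus that at 8 h was 0.36 ± 0.03 and 0.41 ± 0.03 (edgeR adjusted p 4.67e-10 and 2.94e-11).

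CDK4 (ENSG00000135446.17, chr12:57747727-57756013 on the minus strand) was the most abundant of the 10 by TPM in every group. It averaged 186 ± 8.03 CPM under AML874, 188 ± 8.14 CPM under SEL120-34A and 184 ± 2.86 CPM under DMSO at 24 h, and 219 ± 7.00 CPM, 194 ± 5.42 CPM and 213 ± 4.74 CPM at 8 h (SD, n = 3 each). At 24 h the groups overlapped, and the log2 fold change was 0.02 ± 0.03 for AML874 (95% interval -0.05 to 0.08) and 0.03 ± 0.03 for SEL120-34A (-0.03 to 0.10). The one call against DMSO was at 8 h, where all 3 SEL120-34A libraries lay below DMSO in CPM, by -0.14 ± 0.03 (edgeR adjusted p 0.000624). With library totals alone that change was -0.07 and did not pass, while AML874 at 8 h passed at 0.09, against 0.04 ± 0.03 with TMM scaling. By TPM the SEL120-34A libraries at 8 h (211 to 217) overlapped those of DMSO (211 to 220), and those of AML874 (233 to 240) lay above DMSO. TSPAN31 and MARCHF9 overlap CDK4 on the opposite strand, and its strand-specific counts were 1.81 times those in the unstranded column. By TPM, the CDK6 share of summed CDK4 and CDK6 was 33.1 ± 0.698%, 33.1 ± 1.56% and 28.8 ± 0.399% in AML874, SEL120-34A and DMSO at 24 h, and 20.9 ± 0.673%, 22.1 ± 0.418% and 22.7 ± 0.213% at 8 h. Here too the shares of compound and DMSO libraries did not overlap and the exact permutation p was 0.1 (adjusted 0.114). At 8 h the mean TPM under AML874 and DMSO was 62.3 and 63.2 for CDK6, and 236 and 216 for CDK4.

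**Figure D3:**
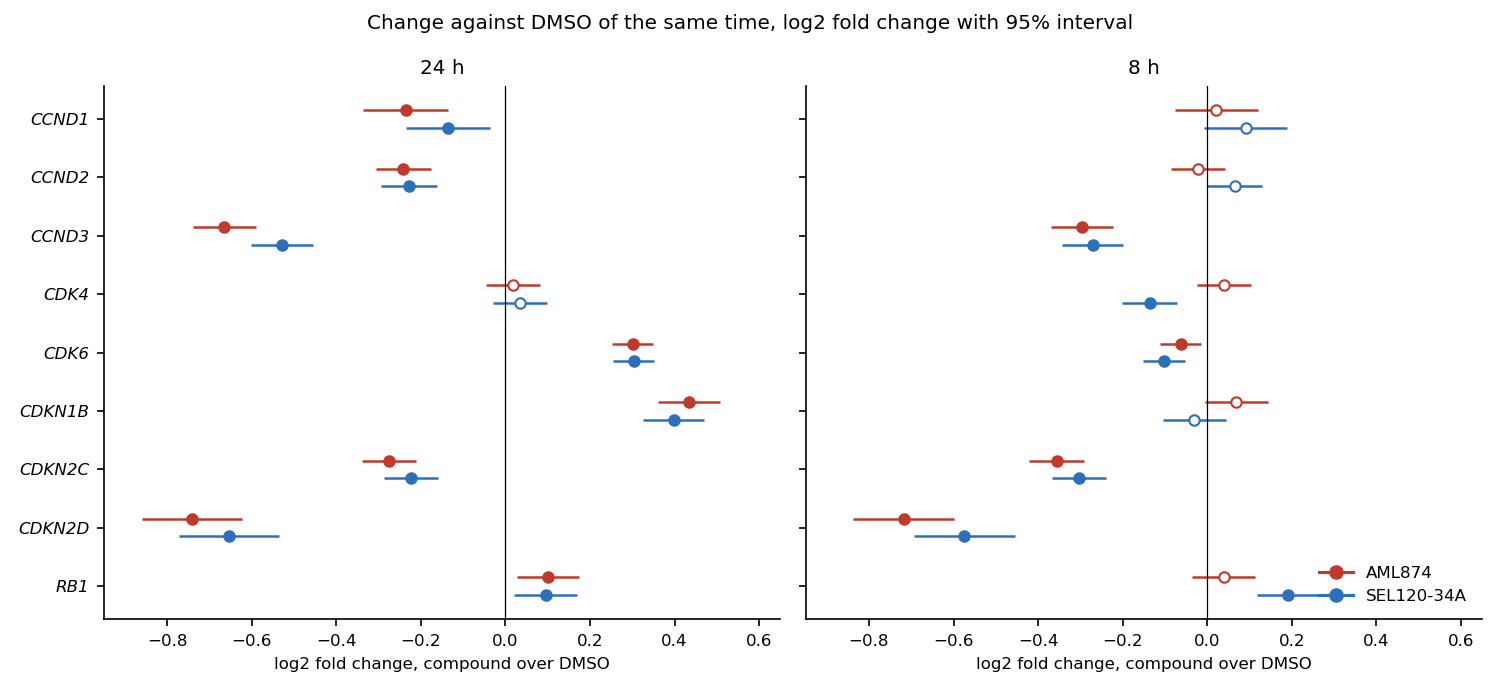
Log2 fold change of each compound over DMSO of the same time with its 95% interval, at 24 h (left) and 8 h (right), for the 9 genes other than CDKN1C; filled points passed an edgeR adjusted p of 0.05. CCND3, CDKN2C and CDKN2D lie below 0 in all 4 comparisons, and CDK6 and CDKN1B lie above 0 at 24 h.

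The INK4 inhibitors were lower under both compounds from 8 h on. CDKN2D (ENSG00000129355.7, chr19:10566462-10569059 on the minus strand) encodes p19 and showed, at either time, the widest change among the listed genes that passed. Its libraries had 8.48, 9.14 and 8.21 CPM under AML874, 8.89, 9.32 and 9.23 CPM under SEL120-34A and 15.0, 14.3 and 13.9 CPM under DMSO at 24 h. At 8 h they had 8.77, 7.86 and 8.85 CPM under AML874, 9.34, 9.61 and 9.19 CPM under SEL120-34A and 14.4, 12.7 and 14.8 CPM under DMSO. No compound library reached any DMSO library. The log2 fold change was -0.74 ± 0.06 for AML874 and -0.65 ± 0.06 for SEL120-34A at 24 h, a fold of 0.598 and 0.636 (edgeR adjusted p 8.35e-13 and 2.99e-11). At 8 h it was -0.72 ± 0.06 and -0.57 ± 0.06, a fold of 0.608 and 0.671 (edgeR adjusted p 4.27e-12 and 4.84e-10). The effect did not differ detectably between the times: 24 h minus 8 h was -0.02 ± 0.08 for AML874 (95% interval -0.19 to 0.15) and -0.08 ± 0.08 for SEL120-34A (-0.25 to 0.09).

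CDKN2C (ENSG00000123080.12, chr1:50960745-50974633 on the plus strand) encodes p18. At 24 h it had 63.2, 67.1 and 63.1 CPM under AML874, 66.9, 64.4 and 69.0 CPM under SEL120-34A and 78.8, 77.9 and 77.4 CPM under DMSO. At 8 h it had 61.5, 59.6 and 64.2 CPM under AML874, 63.0, 65.8 and 63.3 CPM under SEL120-34A and 78.8, 78.6 and 79.8 CPM under DMSO. Again each compound library lay below each DMSO library, and the DMSO level was nearly the same at the 2 times. It fell by 0.28 ± 0.03 under AML874 and 0.22 ± 0.03 under SEL120-34A at 24 h, and by 0.36 ± 0.03 and 0.30 ± 0.03 at 8 h, on the log2 scale (edgeR adjusted p 3.94e-09, 4.07e-07, 2.14e-11 and 5.93e-10). The effect at 24 h minus that at 8 h was 0.08 ± 0.04 (95% interval -0.01 to 0.17) for AML874 and 0.08 ± 0.04 (-0.01 to 0.17) for SEL120-34A, and neither passed. The other INK4 genes, CDKN2A and CDKN2B at chr9:21967753-21995301 and chr9:22002903-22009363, had 0 counts in all 18 libraries, which allows at most 0.0211 to 0.0303 CPM in a library by counting error alone. Their neighbours, named after the values were seen, were counted: MTAP had 5538 to 10754 counts and CDKN2B-AS1 465 to 1051.

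Among the CIP/KIP inhibitors, CDKN1B (ENSG00000111276.11, chr12:12715058-12722371 on the plus strand), which encodes p27, moved with time. It had 89.7, 88.3 and 88.9 CPM under AML874, 82.4, 89.0 and 88.9 CPM under SEL120-34A and 67.8, 65.4 and 64.2 CPM under DMSO at 24 h. At 8 h it had 56.4, 58.3 and 57.7 CPM under AML874, 53.2, 57.2 and 50.6 CPM under SEL120-34A and 54.4, 53.2 and 56.8 CPM under DMSO. All 6 compound libraries lay above DMSO at 24 h, and the groups overlapped at 8 h. CDKN1B rose at 24 h by 0.43 ± 0.04 under AML874 and 0.40 ± 0.04 under SEL120-34A on the log2 scale, a fold of 1.35 and 1.32 (edgeR adjusted p 4.25e-12 and 6e-11). At 8 h the values were 0.07 ± 0.04 (95% interval -0.01 to 0.14) and -0.03 ± 0.04 (-0.10 to 0.04), neither past the threshold. The effect at 24 h minus that at 8 h was 0.37 ± 0.05 and 0.43 ± 0.05 (edgeR adjusted p 1.42e-06 and 6.74e-08). Within groups, CDKN1B went with the HIF target mean (Pearson r of deviations from the group means 0.86 over 18 libraries, a description). The AML874 value at 8 h passed with library totals alone (0.11) and without the 4 libraries high in HIF targets (0.10). With the HIF mean as a covariate it was 0.15 (edgeR adjusted p 0.000134), and the 24 h values were 0.50 for AML874 and 0.45 for SEL120-34A.

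As a share of the summed TPM of the 4 listed CDK inhibitors, a measure chosen after the values were seen and given without a test, CDKN1B made up 41.1 ± 1.24% under AML874, 40.3 ± 1.28% under SEL120-34A and 30.0 ± 0.223% under DMSO at 24 h. At 8 h the shares were 33.6 ± 1.24%, 30.3 ± 0.480% and 26.7 ± 0.184% in the same order. CDKN1C (ENSG00000129757.13, chr11:2883213-2885773 on the minus strand), which encodes p57, was near the limit of detection. Its libraries had 19, 23 and 17 counts under AML874, 11, 12 and 15 under SEL120-34A and 21, 24 and 12 under DMSO at 24 h. At 8 h they had 2, 1 and 6 under AML874, 9, 3 and 6 under SEL120-34A and 2, 3 and 1 under DMSO. The ratio to DMSO per library total was 1.14 (exact interval 0.776 to 1.67) for AML874 and 0.735 (0.474 to 1.13) for SEL120-34A at 24 h, and 1.42 (0.453 to 4.86) and 3.07 (1.17 to 9.45) at 8 h; these intervals cover counting error only. No compound passed the edgeR test for CDKN1C. The inhibitor CDKN1A, which encodes p21 and is not among the 10 genes, changed by -0.47 ± 0.12 and -0.32 ± 0.12 at 24 h and -0.45 ± 0.12 and -0.28 ± 0.12 at 8 h for AML874 and SEL120-34A (edgeR adjusted p 0.00532, 0.0466, 0.00793 and 0.0705, so SEL120-34A at 8 h did not pass). The SEL120-34A call at 24 h ended without SEL120-34A replicate 1 or 3 or any 1 of the DMSO libraries, and with the HIF covariate the 3 called values were -0.27, -0.18 and -0.20. The SEL120-34A value at 8 h passed in 5 of 17 alternatives, at -0.28 in DESeq2, -0.13 with the HIF covariate, -0.30 without the 4 libraries high in HIF targets, and without SEL120-34A 8 h replicate 2 or DMSO 8 h replicate 1.

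RB1 (ENSG00000139687.15, chr13:48303726-48599436 on the plus strand), the substrate of the D cyclin kinases, was called with small changes. It averaged 186 ± 1.04 CPM under AML874, 186 ± 5.46 CPM under SEL120-34A and 174 ± 4.40 CPM under DMSO at 24 h, and 161 ± 3.41 CPM, 179 ± 12.3 CPM and 157 ± 6.18 CPM at 8 h (SD, n = 3 each). The compound libraries lay above DMSO at 24 h under both compounds and at 8 h under SEL120-34A, where replicate 2 reached 193 CPM and the others 174 and 169.6 CPM. The log2 fold change was 0.10 ± 0.04 and 0.09 ± 0.04 at 24 h and 0.04 ± 0.04 and 0.19 ± 0.04 at 8 h for AML874 and SEL120-34A (edgeR adjusted p 0.023, 0.0391, 0.433 and 9e-05). The 24 h calls were slight: leaving out any of 5 of the 6 libraries (all but DMSO replicate 1) put the AML874 adjusted p at up to 0.103, and the SEL120-34A call ended without SEL120-34A replicate 2 or 3 or DMSO replicate 2 or 3 (adjusted p up to 0.176) and under other scalings and tools. Without SEL120-34A 8 h replicate 2, the SEL120-34A change at 8 h was 0.12. RB1 also went with the HIF target mean within groups (r = 0.83 over 18 libraries); with that covariate the values were 0.17 and 0.15 at 24 h and 0.12 for AML874 at 8 h (edgeR adjusted p 0.000532).

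The levels per length ordered the genes alike in all groups at the ends and differently in the middle. Under AML874 at 24 h the mean TPM was 189 ± 9.19 for CDK4, 93.7 ± 2.71 for CDK6, 58.9 ± 3.00 for CDKN2C, 54.6 ± 0.480 for RB1, 48.3 ± 0.0954 for CDKN1B, 32.6 ± 0.882 for CCND3, 12.1 ± 0.203 for CCND2, 10.2 ± 0.632 for CDKN2D and 3.84 ± 0.254 for CCND1 (SD, n = 3). Under DMSO at 24 h it was 196 ± 3.32 for CDK4, 79.5 ± 2.88 for CDK6, 68.3 ± 0.790 for CDKN2C, 53.3 ± 1.31 for CCND3, 51.3 ± 0.627 for RB1, 36.9 ± 0.314 for CDKN1B, 17.6 ± 0.654 for CDKN2D, 14.6 ± 1.02 for CCND2 and 5.34 ± 0.740 for CCND1. No neighbours in these 2 orders overlapped. CCND3 stood below RB1 and CDKN1B under AML874 and above both under DMSO, and CDKN2D stood below CCND2 under AML874 and above it under DMSO. Under DMSO at 8 h, CCND3 was second at 72.0 ± 1.80 TPM, CDKN2C at 64.3 ± 2.60 overlapped CDK6 at 63.2 ± 0.611, and CCND2 at 16.7 ± 0.726 overlapped CDKN2D at 16.6 ± 1.13.

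Time in DMSO moved 8 of the 10 genes, 4 higher and 4 lower at 24 h than at 8 h, against 42.5% of all genes called in that comparison (19.8% higher and 22.7% lower). The libraries of the 2 times did not overlap for 8 of the 10, against 50.0% of all genes. CDK6 (0.24 ± 0.02), CDKN1B (0.26 ± 0.04), RB1 (0.15 ± 0.04) and CDKN1C (57 counts at 24 h and 6 at 8 h, a ratio of 8.23 per library total, exact interval 3.56 to 23.4) were higher at 24 h. CDKN1C passed the filter on low counts only through its 24 h libraries. Its call, and its place among the 8 called and the 8 without overlap, were therefore favoured by the filter. CCND3 (-0.50 ± 0.04), CCND2 (-0.34 ± 0.03), CDK4 (-0.21 ± 0.03) and CCND1 (-0.13 ± 0.05) were lower. The CCND1 call ended without DMSO 24 h replicate 3 (-0.10), DMSO 8 h replicate 1 (-0.10) or DMSO 8 h replicate 2 (-0.10), and with library totals alone, no filter or RSEM counts. By TPM the CCND1 mean went the other way, at 5.34 ± 0.740 under DMSO at 24 h and 4.98 ± 0.358 at 8 h (SD), with overlapping libraries. With the HIF mean as a covariate CCND1 (-0.07) and RB1 (0.06) no longer passed, and CDKN1B was 0.18. CDKN2C and CDKN2D stayed within -0.08 to 0.04 and -0.07 to 0.16 on the log2 scale (95% intervals). This comparison uses the same DMSO 24 h libraries as the compound comparisons at 24 h, so its values share their error.

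**Figure D4:**
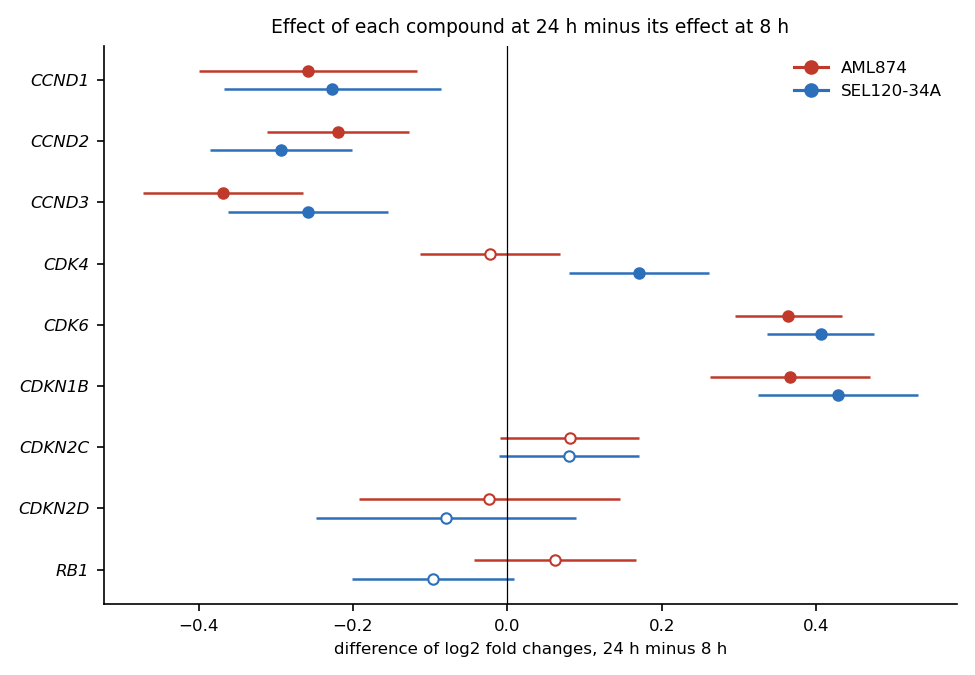
Effect of each compound at 24 h minus its effect at 8 h, as a difference of log2 fold changes with its 95% interval, for the 9 genes other than CDKN1C; filled points passed an edgeR adjusted p of 0.05. CDK6 and CDKN1B lie above 0 and the D cyclins below 0 for both compounds, while the intervals of CDKN2C, CDKN2D and RB1 take in 0.

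Of the differences between effects at the 2 times, 5 of 10 passed for AML874 (2 higher, 3 lower) and 6 of 10 for SEL120-34A (3 higher, 3 lower), against 23.6% and 27.3% of all genes (11.1% higher and 12.5% lower, and 14.2% and 13.0%). Besides those given above, CCND1 differed by -0.26 ± 0.07 and -0.23 ± 0.07 (edgeR adjusted p 0.00528 and 0.0124), and CDK4 by 0.17 ± 0.04 for SEL120-34A (edgeR adjusted p 0.00408). The CCND1 difference for SEL120-34A had an adjusted p of 0.0538 without SEL120-34A 8 h replicate 1 and 0.0536 without DMSO 8 h replicate 3, and of 0.0564 with unstranded counts. The CDK4 difference was 0.10 with library totals alone and did not pass. CDKN2C, CDKN2D and RB1 passed for neither compound. The RB1 difference for SEL120-34A, -0.10 ± 0.05, did pass with library totals alone (-0.17, edgeR adjusted p 0.0192), with the HIF covariate (-0.10, adjusted p 0.0242) and without SEL120-34A 8 h replicate 3.

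AML874 set directly against SEL120-34A gave 1 call of 10 at 24 h, 0 higher and 1 lower, against 19.6% of all genes (8.00% higher and 11.6% lower). At 8 h it gave 4 of 10, 2 higher and 2 lower, against 31.2% (16.0% higher and 15.2% lower). The libraries of the 2 compounds did not overlap for 3 of the 10 genes at 24 h and 3 at 8 h, against 32.5% and 43.2% of all genes. Their doses are not given, so whether the doses match is not known. The call at 24 h was CCND3, given above. For the other genes at 24 h the 95% interval of the log2 difference was -0.05 to 0.05 for CDK6, -0.04 to 0.11 for CDKN1B, -0.12 to 0.01 for CDKN2C and -0.21 to 0.04 for CDKN2D. Those of CCND2, CDK4 and RB1 were -0.08 to 0.05, -0.08 to 0.05 and -0.07 to 0.08, and that of CCND1 was -0.20 to 0.00. At 8 h CDK4 was higher under AML874 than under SEL120-34A by 0.18 ± 0.03 and RB1 lower by -0.15 ± 0.04 (edgeR adjusted p 4.82e-05 and 0.00171), each without overlap; without SEL120-34A 8 h replicate 2 the RB1 difference was -0.10. CDKN1B (0.10 ± 0.04) and CCND2 (-0.09 ± 0.03) passed with overlapping libraries (edgeR adjusted p 0.036 and 0.0344). The CDKN1B call ended with library totals alone and without any 1 of 5 libraries, the 3 of AML874 and SEL120-34A replicates 1 and 3, and the value was 0.05 without SEL120-34A replicate 3. CDKN2D did not pass at 8 h but did with library totals alone (-0.16) and with a filter of 1 CPM in 3 libraries (-0.15), and CCND1 did without the 4 libraries high in HIF targets (-0.12). The CCND2 call ended without AML874 replicate 1 or 2 or SEL120-34A replicate 1.

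The genes that the 10 act through were taken as lists. Their counts stand against 23.1% of all genes higher and 23.7% lower under AML874 and 19.1% and 18.6% under SEL120-34A at 24 h, and 19.7% and 19.9%, and 22.4% and 22.6%, at 8 h. Of 6 genes of cyclin E, cyclin A and CDK2, 1 rose and 4 fell under AML874 and 1 rose and 3 fell under SEL120-34A at 24 h, and 1 rose and 5 fell under each at 8 h. The list's median log2 fold change was -0.19, -0.15, -0.15 and -0.18 for AML874 and SEL120-34A at 24 h and for AML874 and SEL120-34A at 8 h, beside all-gene medians of at most 0.01 in size. CCNE2, a cyclin partner of CDK2 at S phase entry, fell in all 4 comparisons (-0.53 ± 0.04, -0.63 ± 0.04, -0.47 ± 0.04 and -0.66 ± 0.04, in that order), as did CDC25A, a phosphatase that activates CDK2 (-0.45, -0.27, -0.17 and -0.25). CCNA2, the cyclin A of dividing somatic cells, also fell in all 4 (-0.29, -0.18, -0.19 and -0.10). CCNA1, the cyclin A known from the germ line and from myeloid leukaemia, was the member that rose (0.76, 0.92, 0.34 and 0.71). Scaled by library totals, 3 genes of the list fell under each compound at 8 h, and the CCNA2 value for SEL120-34A was -0.04 without a call.

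Of 12 pocket protein, E2F and DP genes, 1 rose and 9 fell under AML874 and 2 rose and 8 fell under SEL120-34A at 24 h, and at 8 h 0 rose and 7 fell and 2 rose and 9 fell. Their median log2 fold change was -0.23, -0.15, -0.14 and -0.25 in that order. E2F1 and E2F2, activators of S phase genes, and E2F8, a repressor of the family, fell in all 4. At 24 h the change under AML874 and SEL120-34A was -0.44 and -0.25 for E2F2, -0.37 and -0.33 for E2F8, and -0.38 and -0.32 for E2F1. E2F3, a further activator, was at -0.09 and -0.05 at 24 h, where only the AML874 value passed (SEL120-34A passed at -0.07 with the HIF covariate), and fell at 8 h (-0.16 and -0.36). Of 7 genes of the MuvB core and its partners, which act at late cell cycle genes, none rose; 3 and 3 fell at 24 h and 6 and 4 at 8 h for AML874 and SEL120-34A. The 3 of 7 called at 24 h are near the 46.8% and 37.7% of all genes called in either direction. The 8 h numbers were 3 and 2 when scaled by library totals, and that of AML874 was 3 without AML874 8 h replicate 2 or with the HIF covariate. MYBL2, a transcription factor that joins MuvB in S phase, fell at 24 h (-0.17 and -0.19), as did FOXM1, its partner in G2 (-0.20 and -0.13).

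**Figure D5:**
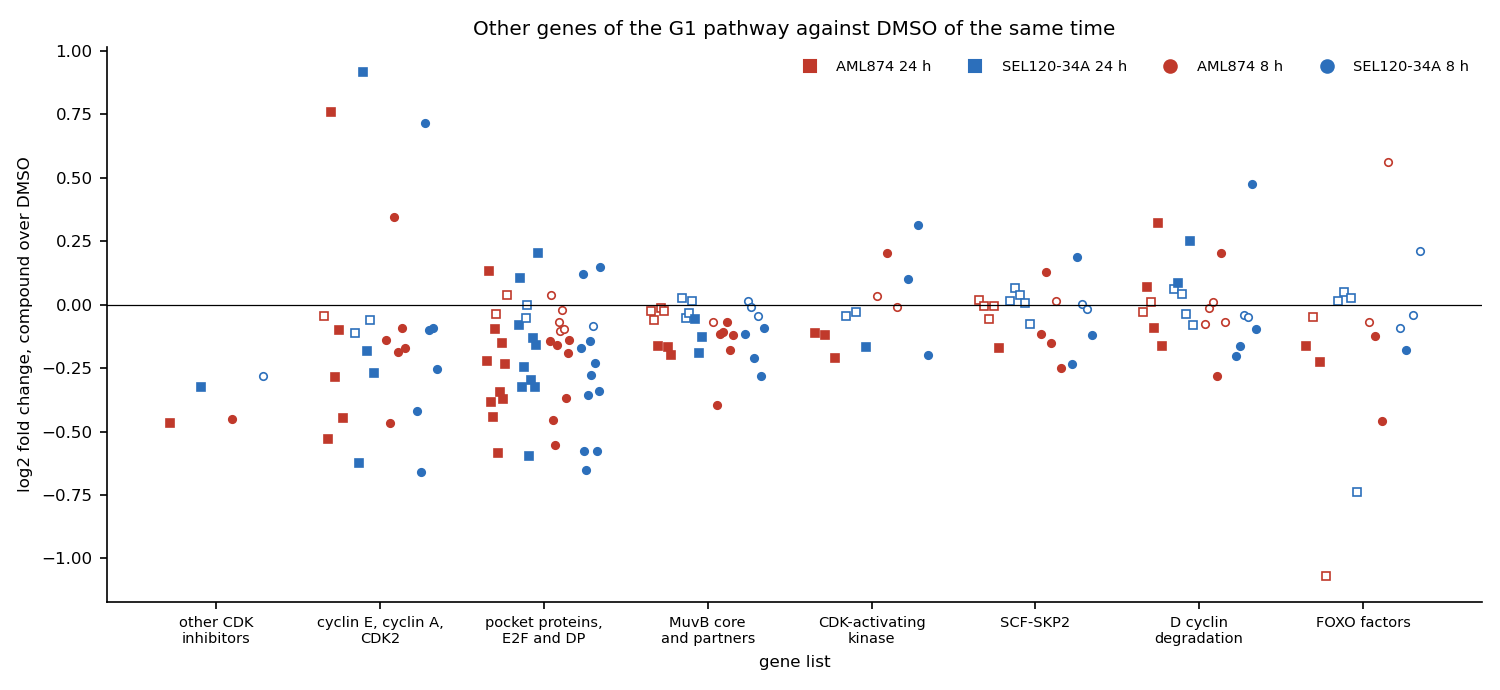
Log2 fold change over DMSO of the same time for each tested gene of the 8 pathway lists, for AML874 and SEL120-34A at 24 h (squares) and 8 h (circles); filled points passed an edgeR adjusted p of 0.05. Most E2F, cyclin E and cyclin A genes lie below 0, with CCNA1 at 0.92 under SEL120-34A at 24 h as the highest.

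Regulators of protein turnover and of CDKN1B transcription were taken next. In either direction, 46.8% and 37.7% of all genes passed at 24 h and 39.6% and 45.1% at 8 h for AML874 and SEL120-34A. Of 5 genes of SCF-SKP2, the ligase that marks p27 for degradation, 0 rose and 1 fell under AML874 and none passed under SEL120-34A at 24 h, by edgeR; at 8 h 1 rose and 3 fell, and 1 rose and 2 fell. SKP2, its substrate receptor, was at 0.02 ± 0.03 and 0.01 ± 0.03 at 24 h without a call, and fell at 8 h (-0.12 ± 0.03 and -0.23 ± 0.03). RBX1, its RING subunit, was the one that fell under AML874 at 24 h (-0.17); under SEL120-34A it was at -0.08 and passed in 5 of 17 alternatives, among them DESeq2 (-0.09), library totals alone (-0.08) and the HIF covariate (-0.08). Of 6 genes of D cyclin degradation, 2 rose and 2 fell under AML874 and 2 rose and 0 fell under SEL120-34A at 24 h, and 1 rose and 1 fell and 1 rose and 3 fell at 8 h. FBXO4, an F-box protein reported to bind cyclin D1, rose in all 4 (0.32, 0.25, 0.20 and 0.47). Other genes of that list were lower at 8 h. CUL4B averaged 44.5 CPM under AML874 and 54.1 CPM under DMSO. DDB1 averaged 418 CPM under SEL120-34A and 468 CPM under DMSO, and AMBRA1 38.5 and 44.3 CPM. At 24 h DDB1 stood above DMSO (474 CPM under AML874, 479 CPM under SEL120-34A and 452 CPM under DMSO). Of 4 FOXO genes, whose products are known activators of CDKN1B, none rose under either compound, while 2 and 0 fell at 24 h and 2 and 1 at 8 h for AML874 and SEL120-34A. For a list of 4 genes these counts lay near or below the shares of all genes called. FOXO6 had at most 14 counts in any library. FOXO4 fell under AML874 (-0.23 at 24 h and -0.46 at 8 h) and did not pass under SEL120-34A (0.03 and -0.04). Of the 3 genes of the CDK-activating kinase, 0 rose and 3 fell under AML874 and 0 rose and 1 fell under SEL120-34A at 24 h, and 1 rose and 0 fell and 2 rose and 1 fell at 8 h; its cyclin CCNH was at -0.12 and -0.03 at 24 h and 0.20 and 0.31 at 8 h, all but the SEL120-34A value at 24 h past the threshold.

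The genes whose pattern over the 18 libraries was most like that of a listed gene were found by Pearson correlation of log2 CPM among 9919 protein-coding genes, as a description; the libraries share 6 groups and the same scaling. For CDKN2D they were JAZF1 (r = 0.976), IER2 (0.972) and ARHGAP30 (0.970), and for CCND3 AIFM2 (0.993), NSFL1C (0.992) and COMMD5 (0.992). CDKN1B was closest to MED13L (0.991) and NREP (0.990). After subtraction of the group means the correlation was 0.45 for CDKN2D with IER2 and 0.82 for CCND3 with COMMD5, the lowest and highest of the 8 pairs given. IER2, an immediate early gene, changed by -0.69 ± 0.04 and -0.69 ± 0.04 at 24 h and -0.58 ± 0.04 and -0.42 ± 0.04 at 8 h under AML874 and SEL120-34A. MED13L, which encodes a subunit that joins the kinase module to Mediator, changed by 0.56 ± 0.04 and 0.47 ± 0.04 at 24 h. At 8 h MED13L changed by 0.14 ± 0.04 under AML874 (edgeR adjusted p 0.00794, with overlapping libraries). This call ended in 4 of 17 alternatives, each leaving out 1 library, and the value lay at 0.098 to 0.22 over the 17. Under SEL120-34A it was at 0.04 ± 0.04 without a call, and with the HIF covariate that value was 0.09 and passed.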

How the data were processed

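Polyadenylated RNA of OCI-AML1 cells was sequenced in 18 libraries. Per the submitters' processing notes, the tools were STAR 2.7.1a and RSEM 1.3.2 on GRCh38; the annotation release is not given in the sources used here. The authors deposited whole-number read counts per gene in unstranded, forward and reverse columns, and RSEM expected counts with TPM per gene. Reverse counts were used, and forward counts were about 6.5% of them in the first library. Per the file headers the expected counts and TPM are estimates, and the expected counts were rounded for use as an alternative. The 4 summary lines of each count file, 22.6% of all counts in AML874 8 h replicate 1, were left out.

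Symbols were found for 60340 of the 60609 identifiers. After edgeR's filterByExpr 20920 genes were tested with edgeR 4.0.16 (TMM scaling, quasi-likelihood test, 1 model of 6 groups, 12 residual degrees of freedom), with p-values adjusted by Benjamini-Hochberg over all genes and a threshold of 0.05. The script was tested on simulated data. CPM are counts scaled to the TMM-adjusted library size, SE is the standard error of the log2 fold change, and intervals are 95%. Shares of TPM were compared by 2-sided exact permutation tests. Coordinates are from GENCODE 29 and promoter sequences from RefSeq, GRCh38.p14. No 2 libraries of the same group agreed within counting noise. Beyond the 10 genes, the text names up to 4 genes per pathway list by smallest p in the comparisons with DMSO, and the 3 genes most like each of the 3 genes with the widest called change; 1 of these is not reported here. The members and lists were chosen with earlier results of these data known. The alternatives were other scalings, filters, count columns and quantifier, DESeq2 1.42.0, a model of only the groups compared, a replicate block, the HIF covariate and leaving out libraries.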

Additional observations from a re-analysis of the deposited data

Results flagged for a closer look

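For 11 results, the effect of a compound on a gene differed between 24 h and 8 h by the test of the difference itself (edgeR, adjusted over all 20920 genes). The values are the log2 fold change at 24 h minus that at 8 h, each against DMSO of its time. For AML874 they were 0.36 for CDK6, 0.37 for CDKN1B, -0.26 for CCND1, -0.22 for CCND2 and -0.37 for CCND3. For SEL120-34A they were 0.41 for CDK6, 0.43 for CDKN1B, 0.17 for CDK4, -0.23 for CCND1, -0.29 for CCND2 and -0.26 for CCND3. CDK6 changed sides: its fold change was above 0 at 24 h and below 0 at 8 h for both compounds. The 8 h values were small, -0.06 for AML874 and -0.10 for SEL120-34A. With library totals alone they were -0.02 and -0.04 and neither passed. Groups of 3 libraries are too small for a check of single outlying libraries.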

How the results depend on the processing

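All values here are log2 fold changes or counts of the 10 genes called. The number of genes called kept within 1.5 times its value under every alternative except leaving out 1 library, where AML874 against SEL120-34A ranged from 2 to 4 at 8 h (2 without AML874 replicate 1 or 2 or SEL120-34A replicate 1) and from 0 to 1 at 24 h (0 without SEL120-34A replicate 1). The calls against DMSO of CCND3, CDKN2C and CDKN2D at both times, and of CCND2, CDK6 and CDKN1B at 24 h, kept their direction and passed under all 17 alternatives: CDKN2D lay at -0.79 to -0.67 under AML874 and -0.68 to -0.60 under SEL120-34A at 24 h, and CCND3 at -0.71 to -0.63 and -0.57 to -0.46. Beside the changes of sign, single-gene values lost a call in 25 cases and gained one in 25 over the alternatives that kept 3 libraries a group or left out the 4 libraries high in HIF targets, and in 37 and 6 cases on leaving out 1 library. Numbers called in the pathway lists moved by at most 3 genes. Signs turned only for values that were not called. With library totals alone CCND2 at 0.024 (AML874 against DMSO at 8 h), CDKN1B at 0.035 and FOXO4 at 0.026 (SEL120-34A against DMSO at 8 h), CDK6 at 0.0040 (AML874 against SEL120-34A at 24 h) and CDKN2C at 0.022 (DMSO at 24 h against DMSO at 8 h) changed sign. Without a filter on low counts CDK6 at 0.0036 (AML874 against SEL120-34A at 24 h) changed sign. With a filter of 1 CPM in 3 libraries CCND2 at 0.0022 and CDK6 at 0.012 (AML874 against SEL120-34A at 24 h), CDKN2C at 9.7e-05 (DMSO at 24 h against DMSO at 8 h) and CDK4 at 0.0018 and CDKN2D at 0.0012 (AML874 effect at 24 h minus its effect at 8 h) changed sign. In a fit restricted to the pair of groups CDK6 at 0.0067 (AML874 against SEL120-34A at 24 h) changed sign. With unstranded counts CDK4 at -0.0075 (AML874 against DMSO at 24 h) changed sign. With rounded RSEM expected counts CDKN1C at -0.027 (AML874 against DMSO at 24 h), CDK6 at 0.0030 (AML874 against SEL120-34A at 24 h) and CDKN2D at 0.00083 (AML874 effect at 24 h minus its effect at 8 h) changed sign. With the HIF target mean as a covariate CCND1 at -0.032 and CDK4 at -0.019 (AML874 against DMSO at 8 h), CDKN1B at 0.020 (SEL120-34A against DMSO at 8 h), CDK4 at -0.031 (AML874 against DMSO at 24 h), CDK4 at -0.0025 (SEL120-34A against DMSO at 24 h) and CDKN2D at -0.048 (DMSO at 24 h against DMSO at 8 h) changed sign. Without the 4 libraries highest in HIF targets, an alternative chosen after seeing the data, CCND1 at -0.012 (AML874 against DMSO at 8 h), CDK6 at 0.013 (AML874 against SEL120-34A at 24 h) and CDKN1C at 0.079 (AML874 effect at 24 h minus its effect at 8 h) changed sign. The values below are the lowest and highest on leaving out 1 library at a time. For AML874 effect at 24 h minus its effect at 8 h the range was CDKN2D at -0.069 to 0.051, CDK4 at -0.059 to 0.013, CDKN1C at -0.68 to 0.80. For AML874 against DMSO at 8 h the range was CDK4 at -0.00019 to 0.046, CDKN1C at -0.61 to 0.86, CCND1 at -0.033 to 0.029. For SEL120-34A against DMSO at 8 h the range was MED13L at -0.0088 to 0.064. For DMSO at 24 h against DMSO at 8 h the range was CDKN2D at -0.0068 to 0.0996. For AML874 against SEL120-34A at 24 h the range was CCND2 at -0.028 to 0.0039, CDK4 at -0.052 to 0.012, CDK6 at -0.029 to 0.020, CDKN1B at -0.00028 to 0.055, RB1 at -0.019 to 0.018. For AML874 against DMSO at 24 h the range was SKP2 at -0.00086 to 0.035, CDK4 at -0.017 to 0.046, CDKN1C at -0.041 to 0.39. For SEL120-34A against DMSO at 24 h the range was SKP2 at -0.0049 to 0.030, FOXO4 at -0.020 to 0.060. The cause was not tested for any of these. With the replicate number as a block, 8 and 8 genes were called for AML874 and SEL120-34A at 24 h and 4 and 6 at 8 h, the same numbers as without the block, and no call among the 10 genes changed; of the other genes named, CDKN1A under SEL120-34A at 24 h lost its call. Libraries with the same number did not deviate together as a rule (correlation -0.54 to 0.50, median -0.01, over 45 pairs, 10 of them over 0.1). Of 18 libraries, 5 correlated best with one of their own number. No pairing by number was found, but with 3 libraries a group this check cannot exclude a weak one. Depth limits CDKN1C, whose few counts leave wide intervals.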
